A study of Rattus norvegicus with 6 samples.

Results

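The genes described here are the CCN genes Ccn1, Ccn2 and Ccn3 and the YAP/TEAD pathway genes Ankrd1, Yap1, Wwtr1, Tead1, Lats1, Lats2 and Amotl2, 10 of the 31368 genes in a table of read counts from rat kidney. They were chosen by gene symbol, with earlier values of the same CKD and Sham contrast already known, among them the level of Ccn2, so their fold changes and p-values describe these libraries and are no independent evidence. Each symbol stood in 1 row of the table, so the rule for repeated symbols (the row with the highest total count) was not needed. Renal tissue RNA was sequenced from 3 CKD libraries (chronic kidney disease) and 3 Sham libraries, all of wild-type genotype. Per the series' design text the model was set up in male Sprague–Dawley rats at the age of 8 weeks. How the disease was produced, and how long before sampling, is not stated in the labels or the design text, and Sham is read only as the control label. Whether each library is a different rat is not stated, so p-values measure only how far these samples spread, and that spread may be technical.

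CCN proteins are secreted matricellular proteins that bind integrins, heparan sulfate proteoglycans and growth factors, and CCN2, once called connective tissue growth factor, is widely studied in kidney fibrosis. YAP (Yap1) and TAZ (Wwtr1) are transcriptional coactivators that enter the nucleus on stretch, stiff matrix or loss of cell contact and act through TEAD factors. The kinases LATS1 and LATS2 phosphorylate YAP and TAZ and keep them in the cytoplasm, and angiomotin-like proteins such as AMOTL2 bind and retain them. Ccn1, Ccn2 and Ankrd1 are the targets most often read as YAP/TEAD output, and Lats2 and Amotl2 are targets that act back on the pathway. The activity of YAP is set largely by phosphorylation, which RNA counts do not measure.

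Promoter sequences are shown for Ccn2, Ccn1 and Amotl2 because all of them are textbook YAP/TEAD targets, with fold changes of different size and sign between CKD and Sham kidneys. The sequences are from RefSeq on the GRCr8 assembly, each 300 bases long, 250 before and 50 from the start site of the table onward, read 5′ to 3′ on the gene's strand. Capitals mark GGAATG, the core of the TEAD motif, or CATTCC, its reverse complement. The windows are chr1:22624565-22624864 on the minus strand for Ccn2, chr2:237225640-237225939 on the minus strand for Ccn1 and chr8:112182376-112182675 on the plus strand for Amotl2.
Ccn2: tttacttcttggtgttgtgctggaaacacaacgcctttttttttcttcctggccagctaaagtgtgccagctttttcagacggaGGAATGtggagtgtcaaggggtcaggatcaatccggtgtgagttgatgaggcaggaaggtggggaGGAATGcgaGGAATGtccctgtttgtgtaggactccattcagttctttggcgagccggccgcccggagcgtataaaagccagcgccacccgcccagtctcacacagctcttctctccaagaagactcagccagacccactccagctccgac
Ccn1: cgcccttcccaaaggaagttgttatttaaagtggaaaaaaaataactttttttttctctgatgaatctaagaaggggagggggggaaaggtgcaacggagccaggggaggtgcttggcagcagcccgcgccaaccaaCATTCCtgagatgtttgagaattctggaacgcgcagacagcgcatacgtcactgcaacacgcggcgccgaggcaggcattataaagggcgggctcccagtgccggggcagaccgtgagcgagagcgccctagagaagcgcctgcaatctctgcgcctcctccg
Amotl2: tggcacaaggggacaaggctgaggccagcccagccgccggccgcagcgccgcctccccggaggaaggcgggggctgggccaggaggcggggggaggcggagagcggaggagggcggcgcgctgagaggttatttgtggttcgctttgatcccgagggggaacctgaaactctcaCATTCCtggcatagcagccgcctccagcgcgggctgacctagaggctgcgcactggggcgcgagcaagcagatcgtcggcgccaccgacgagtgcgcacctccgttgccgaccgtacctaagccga

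The Ccn2 window held GGAATG 3 times on the gene's strand, starting 166, 101 and 92 bases before the start site. The Ccn1 window held it once as CATTCC, 113 bases before the start site, and the Amotl2 window once as CATTCC, 76 bases before it. The Amotl2 start site used here, 112182626, lies inside the RefSeq gene, which begins at 112182060 on the plus strand. That of Yap1, 13451437, likewise lies inside its gene, which begins at 13451640 on the minus strand. In the other windows, those of Ccn1 and Ccn2 included, the start site is the first base of the RefSeq gene. Of the 10 genes 6 had a window in the RefSeq table. Of the other windows, that of Yap1 held GGAATG once, 116 bases before the start site, and those of Wwtr1 and Lats1 did not hold it. Among all 33469 windows of this length, 14.2% held GGAATG on either strand and 32 windows, or 0.0956%, held it 3 times or more. The letters TATAAA stood 31 bases before the start site in Ccn2 and 34 bases before it in Ccn1, where 14.2% of all windows held them on either strand. The CArG box of SRF (1.64% of all windows) and the AP-1 letters TGANTCA (7.33%) were searched on both strands and not found in the 6 windows. These are matches of letters, and no binding was measured.

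Library totals ran from 15918035 to 17503644 counts, and mitochondrial genes took 8.83% to 10.8% of counts in CKD and 14.4% to 37.9% in Sham, with the highest share in Sham 2. CPM below are counts scaled to a common library size after TMM normalization, which corrects for differences in composition between libraries. All 10 genes passed the filter on low counts that left 15371 genes to test. In edgeR's quasi-likelihood test 0 of the 10 passed an adjusted p of 0.05, where 2.67% of all tested genes were called higher and 1.15% lower in CKD. At an unadjusted p under 0.05 there were 2 of the 10, Ccn2 and Amotl2, beside 3655 of all 15371 tested genes. The other tools called 1 of the 10 (DESeq2, Ccn2) and 0 (limma-voom), beside 2497 and 195 of all tested genes. In 4 of the 10 every CKD library lay above every Sham library (18.8% of all tested genes) and in 1 every CKD library lay below (12.4%). With RLE size factors in place of TMM the groups of Wwtr1 overlapped. The members had a median log2 fold change of 0.10, beside -0.01 for all genes tested. With library totals alone in place of TMM that median of all genes was 0.41, and the calls numbered 2047 higher and 181 lower, beside 411 and 176 with TMM, so every fold change is relative to the scaling.

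**Figure D1:**
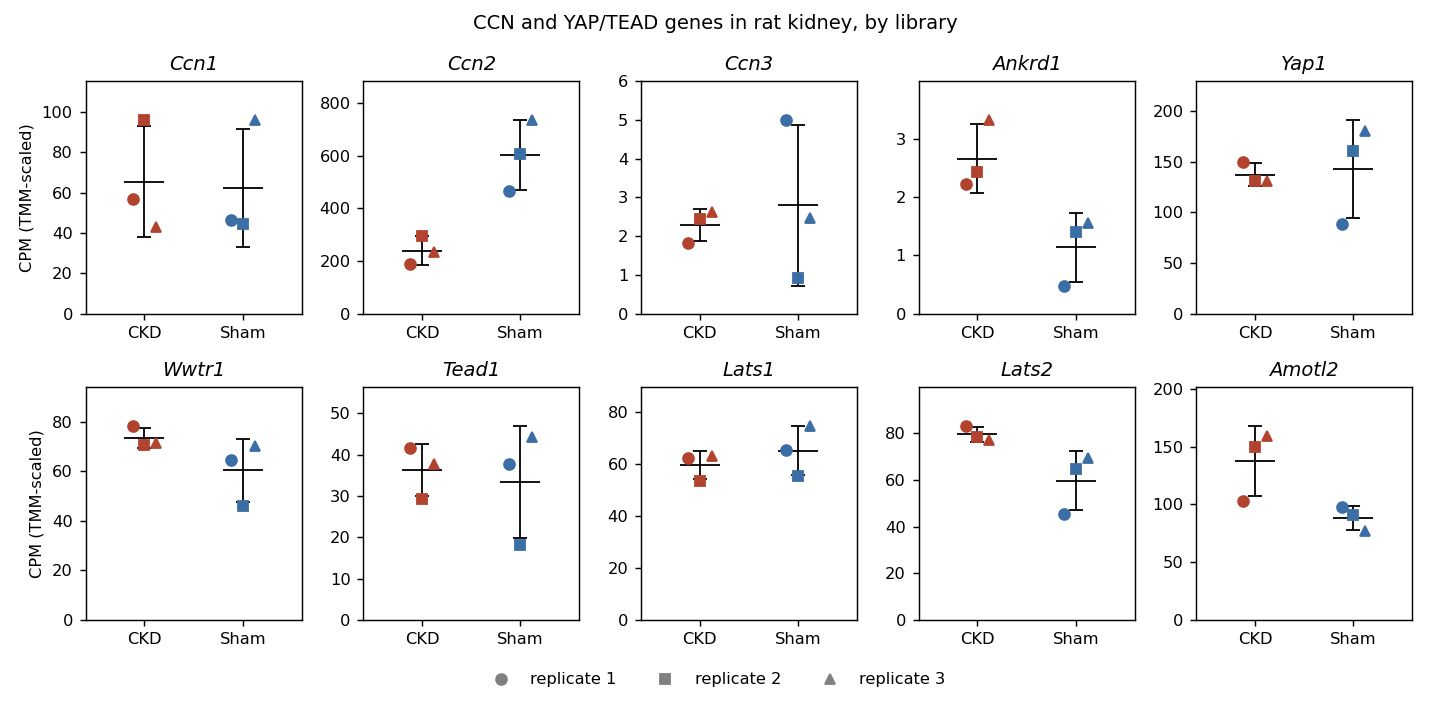
TMM-scaled CPM (vertical axis, from 0, a separate scale in each panel) of the 10 genes in the 3 CKD and 3 Sham libraries. Points are libraries, marked by replicate number, and bars are the mean and SD. The groups did not overlap in Ccn2 (CKD 189 to 296, Sham 466 to 734 CPM), Ankrd1, Wwtr1, Lats2 and Amotl2.

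Ccn2 (ENSRNOG00000015036) lies on chromosome 1 from 20802199 to 20805734 on the minus strand in the deposited coordinates. Its levels were 189, 296 and 233 CPM in CKD 1, 2 and 3, against 466, 607 and 734 CPM in Sham 1, 2 and 3, from 3915 to 5960 counts per CKD library and 6992 to 10427 per Sham library. Every CKD library was below every Sham library. The means were 239 ± 53.9 CPM in CKD and 602 ± 134 CPM in Sham (SD, n = 3 each). The log2 fold change was -1.33 ± 0.31 (SE), with a 95% interval from -2.05 to -0.61. It missed the threshold in edgeR (adjusted p = 0.0568), and 5.13% of all tested genes had a smaller p. The fold change was negative in 16 of 16 fits, that with TMM and all alternative settings and tools, and the adjusted p ran from 9.13e-05 (DESeq2) to 0.255 (edgeR without CKD 1). Besides DESeq2, the gene passed in edgeR without Sham 1 (log2 fold change -1.53, adjusted p = 0.0324), and with no filter it lay at the threshold itself, just under an adjusted p of 0.05.

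Ccn1 (ENSRNOG00000014350, chromosome 2, 234562408 to 234565484, minus strand), the other CCN gene of immediate early type, gave no such separation. It had 57.1, 96.1 and 43.0 CPM in CKD 1, 2 and 3, against 46.6, 44.2 and 96.1 CPM in Sham 1, 2 and 3. In both groups 1 library stood well above the other two, CKD 2 and Sham 3, and the groups overlapped over nearly their whole range. The log2 fold change of 0.07 ± 0.40 (SE) had a 95% interval from -0.87 to 1.01 (edgeR adjusted p = 0.937). Its sign turned when a library was left out, from -0.31 without CKD 2 to 0.46 without Sham 3.

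The ratio of Ccn2 to Ccn1 counts within a library does not depend on the scaling. Counts of Ccn2 were 3.31, 3.08 and 5.42 times those of Ccn1 in CKD 1, 2 and 3, and 10.003, 13.7 and 7.63 times in Sham 1, 2 and 3. The groups did not overlap. On the log2 scale the ratio averaged 1.93 ± 0.44 in CKD and 3.34 ± 0.42 in Sham (SD, n = 3 each), a difference of -1.42. An exact two-sided permutation test over the 6 libraries gave p = 0.1, the smallest that 3 against 3 can give. The difference stayed between -1.67 and -1.20 with each library left out.

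**Figure D2:**
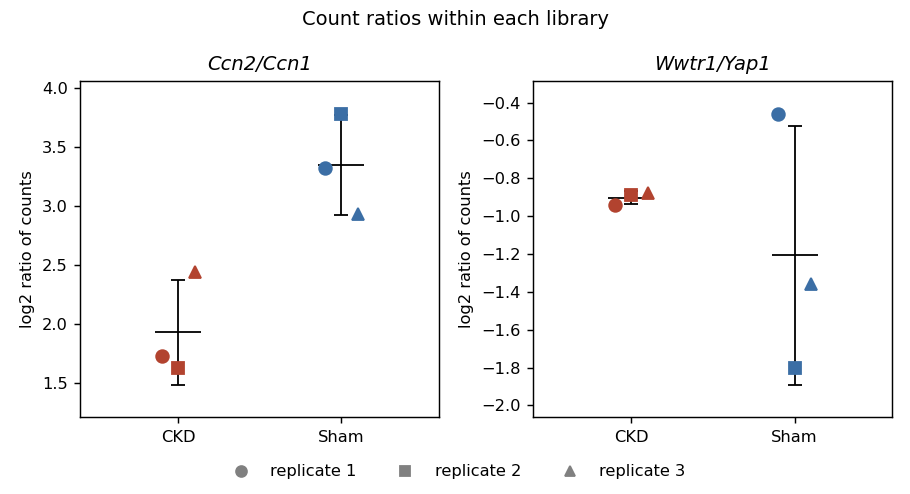
Log2 ratio of counts of 2 genes in the same library (vertical axis) for Ccn2 over Ccn1 and Wwtr1 over Yap1, in CKD and Sham. Points are libraries and bars are the mean and SD. For Ccn2 over Ccn1 the CKD libraries lie from 1.62 to 2.44 and the Sham libraries from 2.93 to 3.78.

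Ccn3 (ENSRNOG00000008697, chromosome 7, 86094000 to 86101019, plus strand) encodes a CCN protein that opposes CCN2 in several cell systems. It had 38, 49 and 51 counts in CKD 1, 2 and 3, and 75, 13 and 35 counts in Sham 1, 2 and 3. On the CPM scale these were 1.83 to 2.61 in CKD and 0.908 to 5.0 in Sham, so the CKD libraries lay within the Sham range. Its log2 fold change was -0.28 ± 0.61 (SE; edgeR adjusted p = 0.818), and it was 0.41 without Sham 1 and 0.13 with library totals alone. The 95% interval ran from -1.71 to 1.14.

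Of the remaining CCN genes Ccn4 was tested and did not pass, and Ccn5 and Ccn6 had few counts. Ccn4, known from Wnt-responsive fibroblasts, averaged 10.7 ± 0.75 CPM in CKD and 10.1 ± 7.65 CPM in Sham (SD, n = 3 each), with Sham 1 at 3.07 and Sham 2 at 18.2 CPM (log2 fold change 0.09, edgeR adjusted p = 0.943; -0.40 without Sham 1 and 0.81 without Sham 2). Ccn5, which lacks the cystine-knot domain of its relatives, had 26, 4 and 4 counts in CKD 1, 2 and 3, and 2, 0 and 0 counts in Sham 1, 2 and 3. A count of 0 allows up to 3 counts, or 0.21 CPM, in Sham 2 and Sham 3, so only CKD 1 stood above what the Sham libraries allow by more than a few counts. Ccn6 had 5, 5 and 2 counts in CKD and 36, 17 and 2 counts in Sham. Ccn5 and Ccn6 did not pass the filter on low counts and were not tested.

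Ankrd1 (ENSRNOG00000018598, chromosome 1, 233815851 to 233834919, minus strand) encodes a stretch-responsive ankyrin repeat protein of muscle that is also a YAP target. It had 46, 49 and 65 counts in CKD 1, 2 and 3, and 7, 20 and 22 counts in Sham 1, 2 and 3. Every CKD library lay above every Sham library, with means of 2.66 ± 0.59 CPM in CKD and 1.14 ± 0.59 CPM in Sham (SD, n = 3 each). The log2 fold change of 1.22 ± 0.54 (SE) did not pass (edgeR adjusted p = 0.222), and it was 0.81 without Sham 1. Summed CPM of the 7 striated muscle markers were 1.39 to 3.67 in CKD and 1.07 to 5.87 in Sham, so the muscle markers overlapped between the groups at a very low level. Its fold change thus had the opposite sign to that of Ccn2.

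Neither coactivator passed the test. Yap1 (ENSRNOG00000005933, chromosome 8, 5095722 to 5167010, minus strand) had 150, 131 and 131 CPM in CKD 1, 2 and 3, against 88.5, 161 and 180 CPM in Sham 1, 2 and 3. The CKD libraries sat inside the Sham range, and Sham 1 was the lowest of all 6. Its fold change on the log2 scale was -0.06 ± 0.29 (SE), with a 95% interval from -0.74 to 0.62 (edgeR adjusted p = 0.926). It was 0.36 with library totals alone, 0.07 without Sham 3 and -0.36 without Sham 1.

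Wwtr1 (ENSRNOG00000016617, chromosome 2, 141648108 to 141766968, minus strand) had 78.2, 70.8 and 71.3 CPM in CKD 1, 2 and 3, against 64.4, 46.1 and 70.3 CPM in Sham 1, 2 and 3. The groups did not overlap, but CKD 2 at 70.8 CPM and Sham 3 at 70.3 CPM almost touched. The fit gave a log2 fold change of 0.29 ± 0.21 (SE), or 0.08 without Sham 2, and did not pass (edgeR adjusted p = 0.458). The log2 ratio of Wwtr1 to Yap1 counts within a library averaged -0.90 ± 0.03 in CKD and -1.21 ± 0.68 in Sham (SD, n = 3 each; exact two-sided permutation p = 0.6). The 3 CKD libraries had nearly the same ratio, whereas the Sham libraries ran from -1.80 to -0.46.

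Tead1 (ENSRNOG00000015488, chromosome 1, 166792628 to 167003369, plus strand), the DNA-binding partner among the 10 genes, had 41.6, 29.4 and 37.8 CPM in CKD 1, 2 and 3. In Sham 1, 2 and 3 it had 37.7, 18.1 and 44.3 CPM. The groups overlapped, and Sham 2 was the lowest library, as it was for Wwtr1. Between groups the log2 fold change was 0.12 ± 0.34 (SE; edgeR adjusted p = 0.862), and -0.22 without Sham 2.

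Among the other TEAD genes Tead2 rose. It had 90, 66 and 42 counts in CKD 1, 2 and 3, and 6, 7 and 2 counts in Sham 1, 2 and 3, that is 3.26 ± 1.10 CPM in CKD and 0.34 ± 0.18 CPM in Sham (SD, n = 3 each). On the log2 scale this was a fold change of 3.22 ± 0.60 (SE), past the threshold (edgeR adjusted p = 0.0399), positive in 16 of 16 fits and called in 10 of them. It was lost without CKD 1 or CKD 2 (edgeR adjusted p = 0.169 and 0.171) and without Sham 2 or Sham 3 (0.0612 and 0.112), and also in limma-voom (adjusted p = 0.0562), and it rests on low counts. Tead3 averaged 17.1 ± 1.58 CPM in CKD and 19.5 ± 9.30 CPM in Sham, and Tead4 averaged 2.79 ± 0.59 CPM in CKD and 2.95 ± 1.82 CPM in Sham (SD, n = 3 each). Neither passed (edgeR adjusted p = 0.791 and 0.949), and both fold changes turned positive with library totals alone or without Sham 2. That of Tead4 was positive in 7 of 16 fits. The others were those without CKD 2, CKD 3 or Sham 3, limma-voom and the replicate block. Of the TEAD and VGLL list 5 of 7 genes were tested, of which 1 rose and 0 fell (median log2 fold change 0.73), with 3 rising with library totals alone or in DESeq2 and 0 in limma-voom. Beside these, 2.67% of all 15371 tested genes rose and 1.15% fell in edgeR with TMM. With library totals alone 2047 of all genes rose, in DESeq2 1379 and in limma-voom 120.

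Neither LATS kinase passed the test. Lats2 (ENSRNOG00000056343, chromosome 15, 31825092 to 31877220, minus strand) had 83.2, 78.5 and 77.1 CPM in CKD 1, 2 and 3, against 45.2, 64.6 and 69.3 CPM in Sham 1, 2 and 3. All CKD libraries were above all Sham libraries, and the log2 fold change was 0.41 ± 0.22 (SE), with a 95% interval from -0.09 to 0.92 (edgeR adjusted p = 0.284). Without Sham 1 the log2 fold change of Lats2 was 0.20. Lats1 (ENSRNOG00000014916, chromosome 1, 2160411 to 2193640, plus strand) had 62.3, 53.5 and 63.1 CPM in CKD 1, 2 and 3, against 65.4, 55.3 and 74.3 CPM in Sham 1, 2 and 3. The groups overlapped, and the log2 fold change was -0.13 ± 0.20 (SE; edgeR adjusted p = 0.741), or 0.29 with library totals alone and -0.27 to -0.05 with each library left out. The difference between their fold changes was not tested.

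Amotl2 (ENSRNOG00000008487, chromosome 8, 103302992 to 103318910, plus strand) had 103, 150 and 160 CPM in CKD 1, 2 and 3, against 97.7, 90.8 and 76.9 CPM in Sham 1, 2 and 3. Every CKD library lay above every Sham library, with CKD 1 close to Sham 1. The means were 138 ± 30.5 CPM in CKD and 88.4 ± 10.6 CPM in Sham (SD, n = 3 each). The fitted log2 fold change was 0.64 ± 0.24 (SE), with a 95% interval from 0.09 to 1.19 (edgeR adjusted p = 0.159). With library totals alone Amotl2 and Lats2 passed (log2 fold changes 1.06 and 0.84, edgeR adjusted p = 0.0277 and 0.0476).

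**Figure D3:**
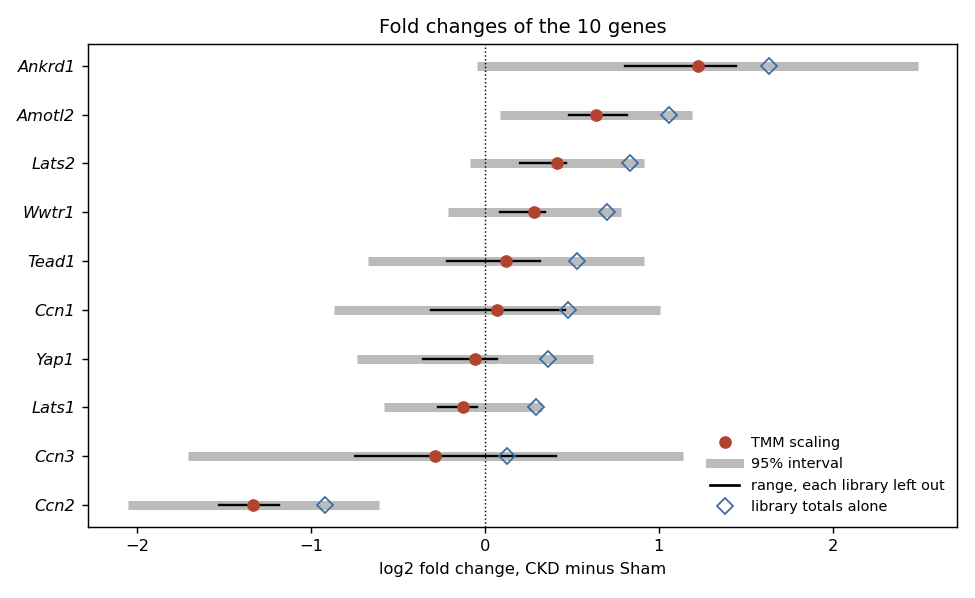
Log2 fold changes (horizontal axis, CKD minus Sham) of the 10 genes with TMM scaling (filled points) and with library totals alone (open diamonds). Grey bars are 95% intervals of the TMM fit and black lines the range with each library left out. Ccn2 is at -1.33 and Ankrd1 at 1.22, and the library-total values lie about 0.41 to the right throughout.

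Levels of different genes are compared per kilobase of the authors' gene length. Ccn2 was the most abundant of the 10 in both groups, at 86.9 CPM per kilobase in CKD and 219 in Sham, and in each group its lowest library was above the highest library of the next gene. In CKD, Amotl2 (35.9), Ccn1 (31.1) and Yap1 (29.8 CPM per kilobase) followed and were not separated from each other by the spread over libraries, though all their libraries lay above those of the genes after them. In Sham, Yap1 (31.0), Ccn1 (29.7) and Amotl2 (23.1) followed in another order, and again overlapped with each other. Lats2, Wwtr1, Tead1 and Lats1 ranged from 8.41 to 15.98 CPM per kilobase in CKD and from 9.18 to 13.0 in Sham. Ccn3 and Ankrd1 came last, at 1.58 and 1.08 in CKD and 1.93 and 0.46 CPM per kilobase in Sham. In Sham 98.4% of the tested genes lay below Ccn2 on this scale, and in CKD 96.3%.

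Other YAP targets were read from a list of 17 genes taken from general knowledge of target signatures. Of 16 tested, 4 rose and 1 fell (median log2 fold change 0.38), with 7 and 1 with library totals alone and 2 and 1 in limma-voom. Of all 15371 tested genes, 2.67% rose and 1.15% fell in edgeR with TMM. With library totals alone 2047 of all genes rose and 181 fell, and in limma-voom 120 rose and 75 fell. Tgfb2, a profibrotic growth factor, had 60.5, 55.8 and 45.3 CPM in CKD 1, 2 and 3, against 3.93, 3.70 and 8.16 CPM in Sham 1, 2 and 3 (log2 fold change 3.35 ± 0.36 SE, edgeR adjusted p = 0.0278). Axl, a receptor tyrosine kinase that clears dying cells, had 183, 182 and 93.2 CPM in CKD, against 29.5, 31.4 and 27.6 CPM in Sham (log2 fold change 2.37 ± 0.30 SE, edgeR adjusted p = 0.0278). Both genes showed no overlap, and CKD 3 was the lowest CKD library for each. In 7 of the 16 targets every CKD library lay above every Sham library, where 18.8% of all tested genes did. In 2 every CKD library lay below, where 12.4% of all tested genes did. Also higher were the Arf regulator Asap1 (log2 fold change 1.12) and the exchange factor Arhgef17 (1.02; edgeR adjusted p = 0.0451 and 0.0467). Gadd45a, a growth arrest and DNA damage gene, fell to 54.4, 78.4 and 84.1 CPM in CKD, against 338, 354 and 450 CPM in Sham (log2 fold change -2.40 ± 0.28 SE, edgeR adjusted p = 0.0278). Called genes of this list thus lay on both sides of 0. Whether YAP or TEAD factors act on them in this tissue was not tested. In edgeR 0 of the 5 calls were left without CKD 1, without CKD 2 or without Sham 2, 1 was left without Sham 3 (Tgfb2, adjusted p = 0.0347) and 3 without CKD 3, while all 5 genes kept their sign.

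Of 26 upstream Hippo genes, all tested, 0 passed in edgeR (median log2 fold change 0.39), with 1 without a filter, 5 in DESeq2 and 10 with library totals alone. Their fold changes were positive in 21 and negative in 5, beside 49.5% positive among all genes tested. Among all genes, 587 of 15371 passed in edgeR with TMM, 722 of 21904 without a filter, 2497 in DESeq2 and 2228 with library totals alone. The genes of this list with the smallest p were Rassf1, a scaffold of the MST kinases, at 30.8 ± 5.92 CPM in CKD and 68.5 ± 22.9 CPM in Sham, and the kinase Taok3, at 13.9 ± 1.65 CPM in CKD and 6.54 ± 1.83 CPM in Sham (SD, n = 3 each; edgeR adjusted p = 0.0656 and 0.081). Neither pair of groups overlapped. In 10 of the 26 every CKD library lay above every Sham library, where 18.8% of all tested genes did. In 1 every CKD library lay below, where 12.4% of all tested genes did.

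Of 11 genes for integrin chains, LRP receptors and a syndecan that bind CCN proteins 1 rose and 0 fell (median 0.62), with 2 and 1 in DESeq2 and 0 and 0 in limma-voom. It was Itgam, the alpha chain of the leukocyte integrin Mac-1. It had 13.4, 12.5 and 6.20 CPM in CKD, against 1.40, 2.52 and 2.32 CPM in Sham (log2 fold change 2.36 ± 0.43 SE, edgeR adjusted p = 0.0394). Of 14 genes of the SRF and MRTF pathway, the actin-sensing route that also drives Ccn1 and Ccn2, 1 rose and 0 fell (median 0.62), with 7 rising with library totals alone and 3 in DESeq2. It was Flna, an actin crosslinker, at 308 ± 124 CPM in CKD and 88.6 ± 6.44 CPM in Sham (SD, n = 3 each; log2 fold change 1.80, edgeR adjusted p = 0.0399). Both calls were lost without CKD 1, CKD 2, Sham 2 or Sham 3, with log2 fold changes of at least 2.17 in Itgam and 1.47 in Flna. For comparison, 2.67% of all 15371 tested genes rose and 1.15% fell in edgeR with TMM. With library totals alone 2047 of all genes rose. In DESeq2 1379 rose and 1118 fell, and in limma-voom 120 rose and 75 fell.

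**Figure D4:**
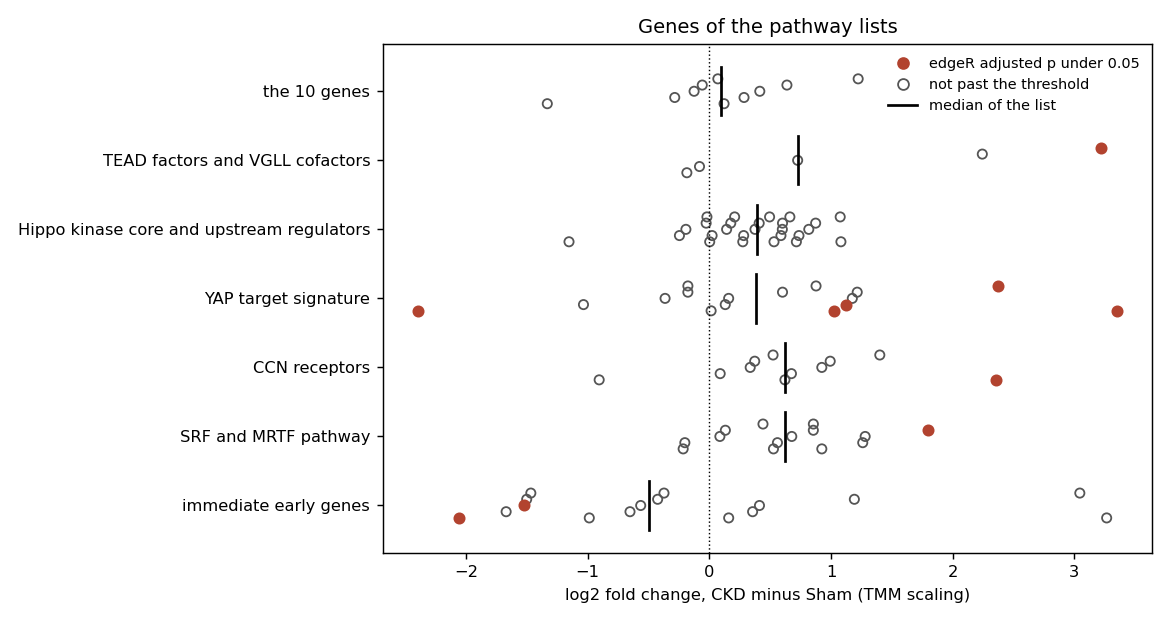
Log2 fold changes (horizontal axis, CKD minus Sham, TMM scaling) of the tested genes of each list, 1 point per gene, with a black line at the list's median. Filled points passed an adjusted p of 0.05 in edgeR. Among the YAP targets 4 filled points lie to the right of 0 and 1 to the left, and of the 10 genes none is filled. With library totals alone all points would lie about 0.41 further right.

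Ccn1 and Ccn2 are themselves induced within minutes to hours of a stimulus, so immediate early genes were read beside them. Of 16 tested, 0 rose and 2 fell, Zfp36, which promotes decay of inflammatory mRNAs, and the antiproliferative gene Btg2 (median log2 fold change -0.49; -0.08 with library totals alone). Zfp36 had 72.4, 124 and 113 CPM in CKD, against 251, 259 and 378 CPM in Sham, and Btg2 had 51.8, 122 and 40.3 CPM in CKD, against 305, 249 and 338 CPM in Sham (edgeR adjusted p = 0.0433 and 0.0484). Both calls held without Sham 1 and were lost without any other library, and with library totals alone 2 genes rose and 2 fell. In DESeq2 2 rose and 6 fell, and in limma-voom 0 rose and 0 fell. Of all 15371 genes 2.67% rose and 1.15% fell in edgeR with TMM, and 2047 and 181 with library totals alone. In DESeq2 1379 of all genes rose and 1118 fell, and in limma-voom 120 and 75. The largest positive log2 fold changes of the list were 3.27 in Egr2 and 3.04 in Egr3, named after their values were seen. Both were positive in 16 of 16 fits and called in 3. These were library totals alone, DESeq2 and edgeR without Sham 1. With TMM and all libraries edgeR called neither. Within the CKD group CKD 2 was the highest library in 15 of the 16 immediate early genes, as it was for Ccn1 and Ccn2. The share of all tested genes with CKD 2 highest was not counted, so whether this is particular to immediate early genes is not known. Fos and Egr1, named after their values were seen, show this most clearly. Fos had 8.06, 62.2 and 5.28 CPM in CKD 1, 2 and 3, against 18.8, 7.34 and 6.90 CPM in Sham 1, 2 and 3, which gave a log2 fold change of 1.19, or -0.72 once CKD 2 was left out. Egr1 had 37.5, 212 and 36.5 CPM in CKD, against 139, 84.3 and 226 CPM in Sham. Without CKD 2 the log2 fold change of Ccn2 was -1.51 and that of Ccn1 -0.31. What the level of these genes in CKD 2 contributes to the values of Ccn1 and Ccn2 was not tested.

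The genes whose profile over the 6 libraries was most like that of each of 4 members were found by the root mean square distance between log2 CPM profiles, each minus its mean, among genes whose log2 CPM averaged 3 or more. For Ccn2 they were Bnip3 (distance 0.11), Itprid2 (0.16) and Zfp36 (0.17). For Ccn1 they included Glrx (0.17) and Insig1 (0.22), and for Ankrd1 they were Sall1 (0.22), Kbtbd7 (0.22) and Zfp113 (0.23). For Ccn3 they were Sdc2 (0.13), Sephs2 (0.15) and Fbxl21 (0.15). With 9842 or 9843 candidates and 6 libraries a close match arises easily, and the distances are descriptions.

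The tissue carried the markers of kidney in every library, and several cell type lists differed between groups. Summed CPM of 7 fibroblast markers ran from 615 to 969 in CKD and from 33.3 to 404 in Sham, and those of 6 macrophage markers from 189 to 380 in CKD and from 31.0 to 103 in Sham. Mural cell markers (7 genes) summed to 311 to 364 CPM in CKD and 215 to 254 CPM in Sham. In Pdgfrb, Cspg4 and Tagln every CKD library lay above every Sham library (18.8% of all tested genes). The other mural markers, Rgs5, Notch3, Acta2 and Myh11, overlapped, and the log2 fold change of Myh11 was -0.59. Injured tubule markers (6 of 7 found) summed to 551 to 1030 CPM in CKD and 356 to 458 CPM in Sham, and 5 collecting duct markers to 398 to 455 CPM in CKD and 642 to 2598 CPM in Sham. Of the injured tubule list Havcr1, Krt8 and Sox4 were higher in every CKD library, while Krt18, Cd24 and Vcam1 overlapped (log2 fold change of Krt18 -0.87). Of the collecting duct list Aqp2, Aqp3 and Slc4a1 were lower in every CKD library (12.4% of all tested genes), while Scnn1g and Atp6v1b1 overlapped. Markers of podocytes, where Ccn2 is known to be expressed, overlapped at 413 to 739 CPM in CKD and 244 to 905 CPM in Sham. The sums of endothelium overlapped at 385 to 504 CPM in CKD and 474 to 622 CPM in Sham. Of this list Pecam1, Emcn and Flt1 were lower in every CKD library than in any Sham library, and Cdh5, Kdr, Tek and Ehd3 overlapped. The sums of the proximal tubule, thick ascending limb, fat and red blood cell lists overlapped too. Of their genes only Cldn16 of the thick ascending limb did not overlap. It had 15.7 to 20.5 CPM in CKD and 24.8 to 39.9 CPM in Sham. Of the adrenal cortex list, tissue that lies on the kidney, 3 of 5 markers were found, which summed to 1.06 to 2.15 CPM in CKD and 5.49 to 10.5 CPM in Sham. Called higher in edgeR were the macrophage markers Cd163, C1qa and Mrc1, the fibroblast marker Col1a1 and the injured tubule markers Havcr1 and Sox4 (log2 fold changes 4.46, 2.59, 2.49, 2.90, 5.56 and 1.92), and 0 markers were called lower. These were 3 of 6 macrophage, 1 of 7 fibroblast and 2 of 6 injured tubule markers. Of all tested genes 2.67% were called higher and 1.15% lower. The macrophage marker Adgre1 and the fibroblast markers Lum and Dpt overlapped between the groups. In bulk tissue fewer cells of a type and less RNA per cell cannot be told apart, and the part of these markers in the values of Ccn2, Ankrd1, Tead2, Itgam and the others was not tested.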

How the data were processed

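RNA from renal tissue of 3 CKD and 3 Sham libraries was read from 1 table of raw counts per gene, deposited by the authors with no normalization and with 1 column per library, all matched by sample title. Per the labels' protocols total RNA was extracted with TRIzol and libraries made with a VAHTS Universal V5 kit. The submitters' processing notes name HISAT2 2.1.0, HTSeq 0.11.2 and fastp 0.20.1, with Rnor_6.0 as the build. The highest gene end on chromosome 1 of the deposited coordinates is 260398790, and the build of these coordinates is uncertain. No source used here gives the strand setting, so counts of genes that overlap, antisense ones included, may be mixed.

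Genes were filtered with filterByExpr (minimum count 10, minimum total 15), scaled by TMM and fitted with edgeR 4.0.16 (quasi-likelihood, robust, group as the only term; R 4.3.3, limma 3.58.1), with Benjamini-Hochberg adjustment over all 15371 genes tested. Standard errors and 95% intervals come from the F statistics of that fit. Totals were 15918035 to 17503644 counts, and limits for counts of 0 (3 counts) cover counting error only. Log2 CPM used a prior count of 2. CPM per kilobase used the gene lengths that the authors deposited in another column. A chi-square test between libraries of 1 group gave 30.9 to 330 per degree of freedom, so none was a copy of another.

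The members, the lists, the tests and the alternatives were chosen with earlier results of these data known. Named genes were the 10 members, the other CCN and TEAD genes, the genes of each list that passed (or the 2 with the smallest p where none did) and the 3 most like each of Ccn1, Ccn2, Ccn3 and Ankrd1, of which 1 is not reported here; Fos and Egr1 were added after their values were seen. Lists were described by counts and medians, without a set test. Alternatives were RLE factors, library totals alone, no filter or CPM of at least 1 in 3 libraries, a fit that was not robust, DESeq2 1.42.0, limma-voom, a replicate block and each library left out. Removal of mitochondrial genes was added after seeing the data. The edgeR fit was tested on simulated data.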

Additional observations from a re-analysis of the deposited data

How the results depend on the processing

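Genes called in all numbered 587 with edgeR and TMM, 2228 with library totals alone (2047 higher, 181 lower, beside 411 and 176), 2497 in DESeq2 and 195 in limma-voom. With each library left out they ranged from 0 (without CKD 1 and without CKD 2, with 2330 and 2312 genes at an unadjusted p under 0.05) to 1711 (without Sham 1), with 2 without Sham 2 and 7 without Sham 3. Every edgeR call named here was lost without CKD 1 and without CKD 2. Of the 10 genes 0 were called in edgeR with TMM, 2 with library totals alone (Lats2 and Amotl2), 1 without a filter (Ccn2, log2 fold change -1.36), 1 in DESeq2 (Ccn2, -1.38) and 0 to 1 with a library left out (1 without Sham 1). The log2 fold change of Ccn2 then ranged from -1.53 to -1.18. The sign turned with library totals alone in Ccn3 (0.13), Yap1 (0.36) and Lats1 (0.29), and in limma-voom in Yap1 (9.92e-05, in effect 0). With a library left out the range crossed 0 in Ccn1 (-0.31 to 0.46), Ccn3 (-0.74 to 0.41), Yap1 (-0.36 to 0.072) and Tead1 (-0.22 to 0.32). The cause was not tested.

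Same-numbered libraries did not deviate together (correlations over genes of -0.21, 0.0045 and -0.16 for numbers 1, 2 and 3), so the numbers were not read as pairs. With the replicate block edgeR called 10 genes in all and 0 of the members, the adjusted p of Ccn2 was 0.12 and that of Tead2 0.0728, and 0 genes of the pathway lists passed. With 3 libraries per group, low counts of Ccn3, Ankrd1, Ccn5 and Ccn6 limit what can be seen.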
